A study of Mus musculus with 4 samples.

Results

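The narrow peaks described here are the regions of an MBD1 ChIP-seq peak list that lie on chromosomes 1 to 19, are under 1000 bp wide and hold on average from 3 to under 20 input reads per bin. They were chosen by these measured values, width and mean input, and number 1400 of the 37778 peaks in the list and are 3.72% of the 37637 autosomal peaks. Another 513 autosomal peaks were under 1000 bp wide but fell outside the input limits, 146 with fewer input reads and 367 with more. The list was made from the dentate gyrus of C57BL6 mice of around 9 weeks that carry a FLAG tag on Mbd1. An anti-FLAG antibody from Sigma was used for 2 ChIP libraries, and 2 input libraries received no antibody. All 4 libraries come from the tagged line, so ChIP signal that does not depend on the tag was not measured. The labels give no more detail of the tagged allele, do not say how many animals went into a library, and name no sorting of cells from the dentate gyrus. The list gives 1 value per peak for the libraries together. No value per library is in it, so no difference below could be set against the spread between replicates, and no test was made.

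MBD1 is a nuclear protein with a methyl-CpG-binding domain, which reads methylated cytosine in CpG, and with CXXC zinc fingers, one of which can bind unmethylated CpG. It is known as a transcriptional repressor that works with histone-modifying partners. In the dentate gyrus it is known for a role in adult neural stem cells and the making of new granule neurons. A narrow peak is a short interval of excess ChIP reads, whereas a broad one is excess spread along many kilobases.

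Counts were made in bins of 200 bp: with every bin of a fixed 200 bp grid that a peak touches, the summed ChIP and summed input reads came out whole (tolerance of 1e-06 reads) in 100% of the 37778 peaks. The narrow peaks were at least 302 bp wide, with a median of 851 bp, and 835 of them spanned 5 bins, 308 spanned 4, 204 spanned 6, 49 spanned 3 and 4 spanned 2. The typical narrow peak thus rests on few reads. The median sum was 338 ChIP reads (interquartile range 277 to 403) and 50 input reads (32 to 72), against 982 and 196 in the 32834 peaks of 1000 to under 10000 bp with the same input limits, called wide peaks below. The fold of summed ChIP over scaled input had a median of 2.87 (interquartile range 2.28 to 3.83), and the upper bound of its exact binomial 95% interval was typically 1.86 times the lower bound. These intervals cover counting error only and treat reads as independent. Reads are not independent molecules, so the intervals may be too narrow. The list gives no library totals, and the depth per library is therefore not known. Together the narrow peaks covered 1163 kb, which is 0.786% of the bases under autosomal peaks.

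Width and input chose these peaks, and both come from the ChIP to input contrast that called them, so ChIP, ratio and p-type values are given as a description. Narrow peaks had more ChIP reads per bin than wide peaks of equal input, and a higher log2 ratio. Equal input means that the wide peaks were weighted so that each stratum of 1 input read per bin counted as much as it does among the narrow peaks. Mean ChIP in narrow peaks had a median of 69.2 reads per bin (interquartile range 58 to 82.2, lowest 35.4, highest 1639), against 57.4 (52.3 to 63.2) in wide peaks at equal input, a ratio of 1.21. The authors' log2 ratio of ChIP to scaled input had a median of 1.71 (interquartile range 1.32 to 2.26, lowest 0.66, highest 5.78) against 1.38 (0.97 to 1.92), a difference of 0.34. Against wide peaks of 1000 to under 2000 bp alone the difference was 0.20. The interquartile ranges of both measures overlap, so the classes differ in all 3 quartiles without separating single peaks. ChIP above 100 reads per bin was found in 158 narrow peaks (11.3%), against 1.97% of wide peaks at equal input, and ChIP above 200 in 6. The p-type values differed little at the median. The authors' −log10 of the smallest p over bins had a median of 3.10 against 3.02 in wide peaks at equal input, taken over fewer bins in narrow peaks. Its interquartile range was broader in narrow peaks, 1.91 to 5.64 against 2.07 to 4.53. The authors' −log10 of the mean p had medians of 0.802 and 0.796, with interquartile ranges of 0.693 to 0.940 and 0.685 to 0.936.

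Both contrasts ran through the whole range of input. The median ChIP of narrow peaks was the higher one in 17 of 17 strata, with a ratio from 1.06 at 3 to 4 input reads to 1.30 at 16 to 17. At 3 to 4 input reads the medians were 50.7 reads per bin in 84 narrow and 47.9 in 155 wide peaks. At 18 to 19 input reads they were 91 in 59 narrow and 70 in 839 wide peaks. The gap in mean ChIP was thus small where input was low and wider where input was high. The log2 ratio was also higher in narrow peaks in 17 of 17 strata, by 0.18 to 0.40. Across the 1400 narrow peaks ChIP was correlated with input (Spearman's rho 0.71, and 0.68 across the 32834 wide peaks); the points share their libraries, and a peak is listed only where ChIP exceeds scaled input. The lowest ChIP among narrow peaks was 35.4 at 3 to 4 input reads and 72.8 at 19 to 20.

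**Figure D1:**
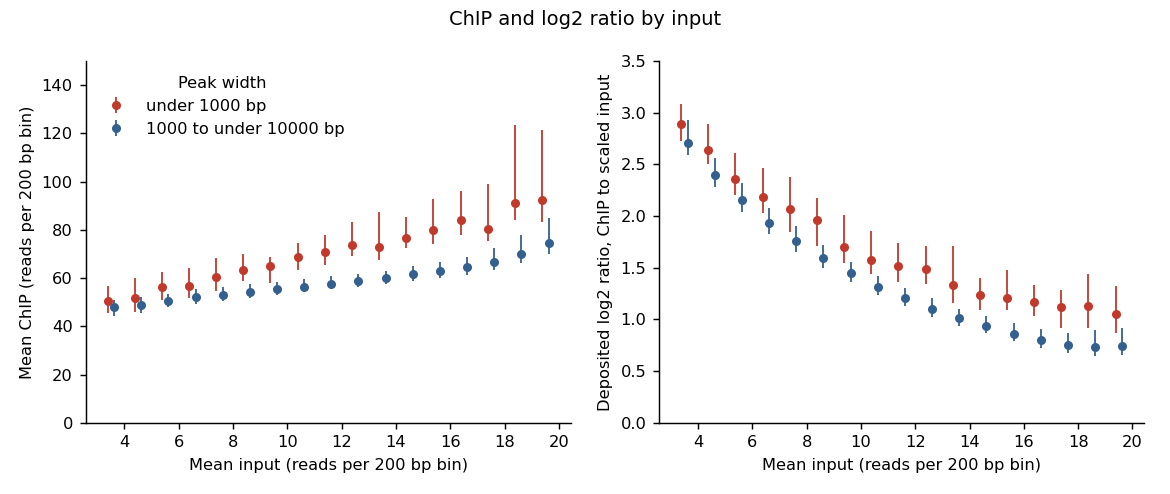
Median mean ChIP (left, reads per 200 bp bin) and median deposited log2 ratio of ChIP to scaled input (right) against mean input in strata of 1 read per bin, for 1400 narrow peaks (red) and 32834 wide peaks (blue). Points are medians and bars interquartile ranges over peaks; the red median lies above the blue one in 17 of 17 strata in both panels, and the distance in ChIP is smallest at 3 to 4 input reads, 50.7 against 47.9.

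The share of narrow peaks among all peaks differed along the input range. They made up 35% of the 240 peaks at 3 to 4 input reads per bin, 1.81% of the 4245 peaks at 11 to 12 and 9.84% of the 549 peaks at 19 to 20. In number they were 84, 77 and 54 in these strata. Their share, not their number, was therefore higher at both ends of the input range than in its middle, and highest at the low end. A mean over 5 bins, the median of narrow peaks, spreads more by counting alone than a mean over 16 bins, the median of wide peaks, and its part in this share was not tested.

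The authors' summit signal, a whole number read from its name as the pile-up of ChIP reads at the summit, had a median of 66 in narrow peaks (interquartile range 54 to 84, lowest 30, highest 2480) against 58 (51 to 66) in wide peaks at equal input, a ratio of 1.14. It was higher in narrow peaks in 15 of 17 strata. The exceptions were the lowest strata, with medians of 44 against 45 at 3 to 4 input reads and 45 against 47 at 4 to 5. The highest bin of a peak gave 91 against 81 reads. With the highest bin left out of each peak, mean ChIP was 63.5 against 55.8 reads per bin, a ratio of 1.14. Over all strata together, narrow peaks were therefore higher at the summit, in the highest bin and in the remaining bins. The highest bin was 1.31 times the peak's mean in narrow peaks and 1.40 times in wide peaks at equal input, with a median of 5 and 14 bins to take the highest from; a highest value over more bins lies farther from the mean by construction, so nothing is read from this.

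Mean ChIP decreased in steps over the width classes on both sides of the border. With every width class weighted to the same input, mean ChIP was 76.2 reads per bin in the 90 peaks under 600 bp, 70 in the 403 peaks from 600 to under 800 bp and 67.8 in the 907 peaks from 800 to under 1000 bp. It went on to 63 from 1000 bp, 60.4 from 1500 bp, 58.2 from 2000 bp, 56.3 from 3000 bp and 55.9 from 5000 to under 10000 bp. Mean ChIP thus became lower with each wider class, in a gradient of which the narrow peaks are one end. Along the same classes the log2 ratio went from 2.03 under 600 bp to 1.31 in the widest class. The highest bin followed up to 1500 bp, with medians of 96, 93, 88 and 83 reads in the first 4 classes. It was then level at 80 in the 3 classes from 1500 to under 5000 bp and 84 in the widest class. Directly at the border, without weighting, the 522 peaks less than 100 bp below 1000 bp had a median ChIP of 66.2 over 10 input reads and the 556 peaks less than 100 bp above it 66.7 over 11.3. At the lower input border, peaks under 1000 bp had medians of 49.2 ChIP reads per bin just inside (3 to under 3.5 input reads, 46 peaks) and 48 just outside (2.5 to under 3, 35 peaks). At the upper border they had 92.2 just inside (0.5 input reads below 20, 19 peaks) and 95 just outside (0.5 above it, 27 peaks).

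**Figure D2:**
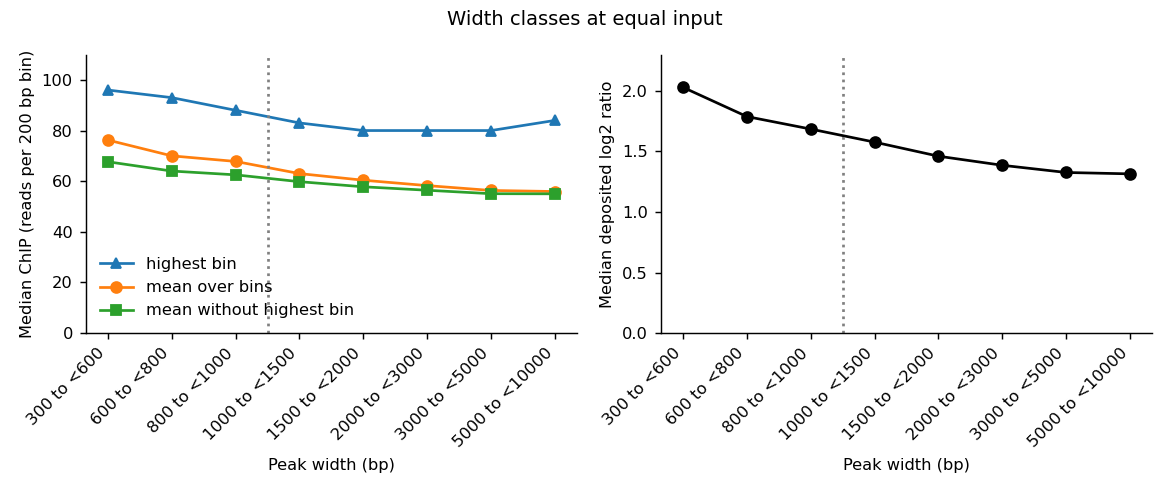
Medians by width class at equal input. Left, ChIP reads per 200 bp bin as the highest bin (triangles), the mean over bins (circles) and the mean without the highest bin (squares); right, the deposited log2 ratio. The dotted line marks 1000 bp. Mean ChIP goes from 76.2 in the narrowest to 55.9 in the widest class, lower in each wider class.

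The authors' quality flag is a mark in the list without a stated definition. By it 538 of the 1400 narrow peaks were called (38.4%, exact Clopper-Pearson 95% interval 35.9 to 41.0%), where 30.6% of all autosomal peaks were called. At equal input 31.8% of wide peaks carried it. The order was not the same throughout: narrow peaks had the higher share in 13 of 17 strata, and the lower share at 3 to 4 input reads (45.2% against 58.1%). Over width classes at equal input the share was 38.6% under 600 bp, lowest at 29.2% from 2000 to under 3000 bp and highest at 44.7% from 5000 to under 10000 bp. The flag was thus most frequent in the widest class and not in the narrowest. A log2 ratio above 2 was held by 511 narrow peaks (36.5%), against 7.44% of all autosomal peaks and 22.0% of wide peaks at equal input. The rule used width and mean input, not this ratio. Both are tied to the ChIP to input contrast behind it, so nothing is read from these counts.

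The peak with the most ChIP reads among the narrow peaks lay at chr17:36621179-36622169 (mm9). It was 991 bp wide and held 1639 ChIP reads per bin over 8.83 input reads, with 3529 reads in its highest of 6 bins and a summit signal of 2480. It stood far above the next one. At chr1:24864472-24865186, 715 bp wide, 384.5 ChIP reads per bin stood over 15.2 input reads, and the summed ChIP was 10.4 times the scaled input (exact binomial 95% interval 8.07 to 13.7). At chr5:105011202-105012039, ChIP was 305.6 over 19.4 input reads, 6.51-fold (5.30 to 8.08). At chr7:27924530-27925129, a peak of only 600 bp, ChIP was 260.2 over 8.75 input reads, 12.3-fold (8.78 to 17.7). The other 4 of the 8 highest, at chr15:7445694-7446648, chr8:24912453-24913393, chr13:59074491-59075348 and chr5:139440613-139441381, had 192.5 to 205.5 ChIP reads per bin and folds of 4.85 to 9.29. All 8 carried the quality flag, and their summits lay 291 to 472 bp from the nearer edge. The authors' −log10 of the mean p over bins did not follow ChIP: it was 1.19 for the peak on chromosome 17 and 20.6 for the one at 384.5 reads per bin. Their −log10 of the smallest p was stored as infinite for the peak on chromosome 17 and was 42.6 for the other. The genes at these positions were not analysed here, because the gene table at hand follows another build, GRCm38.p6.

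Of the 5 narrow peaks with the largest deposited log2 ratio, 3 had under 100 ChIP reads per bin, over little input. The largest was again the peak on chromosome 17, at 5.78, and the fifth was the one at chr7:27924530-27925129, at 3.89. The peak at chr1:130817804-130818550 had a log2 ratio of 4.18 with 78.5 ChIP reads per bin over 14 summed input reads, 9.27-fold (5.44 to 17.2). The peak at chr15:10172002-10172995 had 4.02 with 96.2 ChIP reads per bin over 21 summed input reads, 9.47-fold (6.12 to 15.4). The peak at chr1:143174000-143174746 had 4.0 with 64.8 ChIP reads per bin over 13 summed input reads, 8.23-fold (4.73 to 15.7). The intervals of these 3 folds overlap widely, so the order of the folds is not resolved. The intervals of the named peaks take no account of how these peaks were chosen. Their deposited ratios, which are means of log2 values over bins, were larger than log2 ratios from mean ChIP and mean scaled input after adding 1 to both (3.07, 3.12 and 2.89).

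The 3 narrowest peaks each spanned 2 bins. The peak at chr10:15408045-15408346, 302 bp wide, had 89.5 ChIP and 3.5 input reads per bin, 10.6-fold with an interval of 5.03 to 26.7. The peak at chr5:61353697-61353999 had 129 and 5.5, 9.69-fold (5.33 to 19.7), and the peak at chr6:69307664-69307968 had 86.5 and 6, 5.96-fold (3.33 to 11.8). The 3 intervals overlap. Of the 3, the one on chromosome 5 carried the quality flag.

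Summits of narrow peaks lay near the middle. The summit fell between 25% and 75% of the width in 1200 of 1400 narrow peaks (85.7%, exact 95% interval 83.8 to 87.5%), against 54.2% of wide peaks at equal input. The first and last 10% of the width held 7 and 12 of the narrow summits, the latter being 0.857%, against 6.02% and 5.04% of wide ones. In wide peaks the summits were spread almost evenly over the 8 inner stretches of 10% of the width, at 10.3 to 12.3% each, while in narrow peaks the stretches on either side of the midpoint held 266 and 276 summits, the latter being 19.7%. Before the midpoint lay 725 of the 1400 narrow summits (51.8%, exact 95% interval 49.1 to 54.4%), close to the 52.4% of wide peaks at equal input. In base pairs, the distance from the summit to the nearer edge had a median of 287 bp (interquartile range 239 to 364) in narrow peaks, where it cannot exceed 499 bp, and of 614 bp in wide peaks at equal input. A summit within 100 bp of an edge occurred in 31 narrow peaks (2.21%) and in 0.444% of wide peaks at equal input. The same distance from an edge is a larger part of a narrow peak's width, and its part in the share of central summits was not tested. By width class the share between 25% and 75% went from 90.8% under 600 bp to 84.2% from 800 to under 1000 bp, 73.2% from 1000 to under 1500 bp and 43.8% from 5000 to under 10000 bp. Directly at the border it was 83.7% (exact 95% interval 80.3 to 86.8%) in the 522 peaks less than 100 bp below 1000 bp and 80.6% (77.0 to 83.8%) in the 556 peaks less than 100 bp above it, and the intervals overlap.

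**Figure D3:**
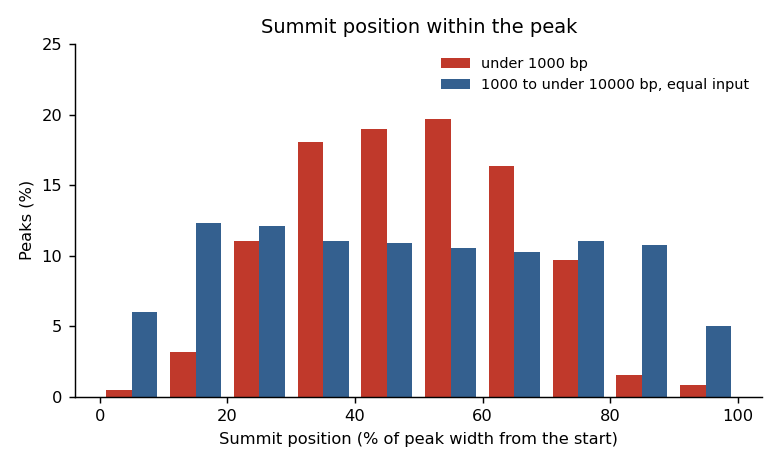
Position of the summit as a percentage of the peak's width from its start, in steps of 10%, for narrow peaks (red) and for wide peaks at equal input (blue); bars give the percentage of peaks. Red bars are highest at the middle (up to 19.7%) and lowest at the edges (at most 0.857%), while the inner blue bars lie between 10.3% and 12.3%.

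Narrow peaks stood farther from other peaks. The distance, edge to edge, to the nearest peak of the whole list had a median of 25420 bp (interquartile range 8754 to 74251) in narrow peaks and of 9243 bp (3710 to 22800) in wide peaks at equal input, a ratio of 2.75. The interquartile ranges overlap between 8754 and 22800 bp. Another peak was nearer than 10 kb for 382 narrow peaks (27.3%), against 52.0% of wide peaks at equal input, and nearer than 1 kb for 29 (2.07%) against 4.65%. At the other end, 259 narrow peaks (18.5%) had no peak within 100 kb, against 5.03%. The median distance was larger for narrow than for wide peaks in 17 of 17 input strata, from 1.06 times at 19 to 20 input reads to 6.56 times at 12 to 13. The surroundings were sparser too: a narrow peak had a median of 12 other peaks within 500 kb on either side (interquartile range 6 to 29), and a wide peak at equal input 32. By width class the median distance was 27844 bp under 600 bp, 32315 bp from 600, 22689 bp from 800 and 16238 bp from 1000 to under 1500 bp, down to 6429 bp from 5000 to under 10000 bp.

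**Figure D4:**
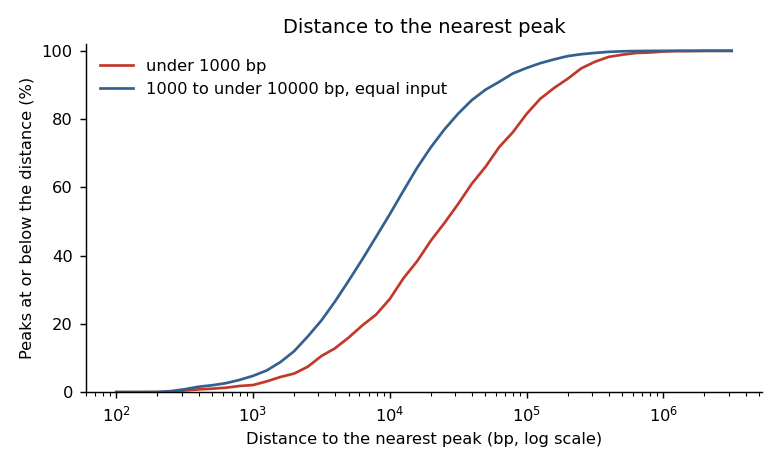
Cumulative percentage of peaks (vertical axis) by distance to the nearest peak of the list (horizontal axis, bp, log scale) for narrow peaks (red) and wide peaks at equal input (blue). The red curve lies to the right of the blue one; at a distance of 10 kb or less it stands at 27.3% and the blue one at 52.1%.

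Narrow peaks far from others tended to have more input and more ChIP, but a lower log2 ratio. Across the 1400 the distance to the nearest peak had a Spearman's rho of 0.35 with input and 0.31 with mean ChIP; the points share their libraries, and no p is given. The ChIP contrast was seen at every distance. With a neighbour under 5 kb away, 222 narrow peaks had a median of 62.2 ChIP reads per bin against 53.8 in wide peaks of equal input and distance, a ratio of 1.16. With none within 100 kb, 259 narrow peaks had 78 against 64.2, a ratio of 1.21. The log2 ratio was higher in narrow peaks by 0.27 to 0.36 in the 4 distance classes. Among the narrow peaks alone its median was 2.06 with a neighbour under 5 kb away and 1.55 with none within 100 kb. Their median input was 7.4 and 13 reads per bin in these classes.

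The 5 most isolated narrow peaks had 55 to 88 ChIP reads per bin, where the interquartile range of all narrow peaks was 58 to 82.2. Their folds ran from 1.86 to 4.37, where that of all narrow peaks had an interquartile range of 2.28 to 3.83. The peak at chr7:134834032-134834805 had no other peak for 1629608 bp, with 81.2 ChIP reads per bin over 18 input reads, 1.86-fold (exact 95% interval 1.48 to 2.37). The peak at chr12:88720066-88721050 had none for 1014349 bp and was 2.33-fold over scaled input (1.79 to 3.06), and the one at chr11:86842031-86842934 had none for 1003846 bp and was 4.37-fold (2.92 to 6.81). The peaks at chr6:87611232-87612189 and chr15:76854575-76855350 had none for 990856 and 868975 bp, at 3.42-fold (2.42 to 4.98) and 1.89-fold (1.52 to 2.39). None of the 5 carried the quality flag. The strongest narrow peak was isolated on its left side, with a gap of 868279 bp before it and 108714 bp after it.

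The narrow peaks were found on all 19 autosomes, 0.582 per Mb of the span between the first and last peak. Their number was highest on chromosome 1 (123) and lowest on chromosome 19 (32). Their density was highest on chromosome 16 (0.799 per Mb), followed by chromosomes 15 (0.757) and 10 (0.725), and lowest on chromosome 7 (0.350), followed by chromosomes 9 (0.422) and 11 (0.438). The highest density was 2.28 times the lowest, close to the 2.49 times of wide peaks. As a share of the peaks within the input limits, narrow peaks made up 3.91% over all autosomes, from 3.19% on chromosome 4 to 5.26% on chromosome 11. The exact intervals of these shares treat peaks as independent draws, which was not tested, so they are given as a description. Chromosome 11 was the single chromosome whose exact 95% interval (3.96 to 6.84%) did not hold the share over all autosomes, and it is 1 of 19 examined. It had few peaks of either kind (52 narrow and 899 wide), and its narrow peaks lay farthest apart from other peaks, with a median distance of 76705 bp. Narrow peaks had the higher ChIP at equal input on 19 of 19 chromosomes, with ratios from 1.13 on chromosome 16 to 1.28 on chromosome 9. The log2 ratio was higher on 19 of 19, by 0.13 on chromosome 18 to 0.51 on chromosome 11, and the distance to the nearest peak was larger on 19 of 19. All chromosomes share the same libraries and peak list, so their agreement is not independent repetition.

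**Figure D5:**
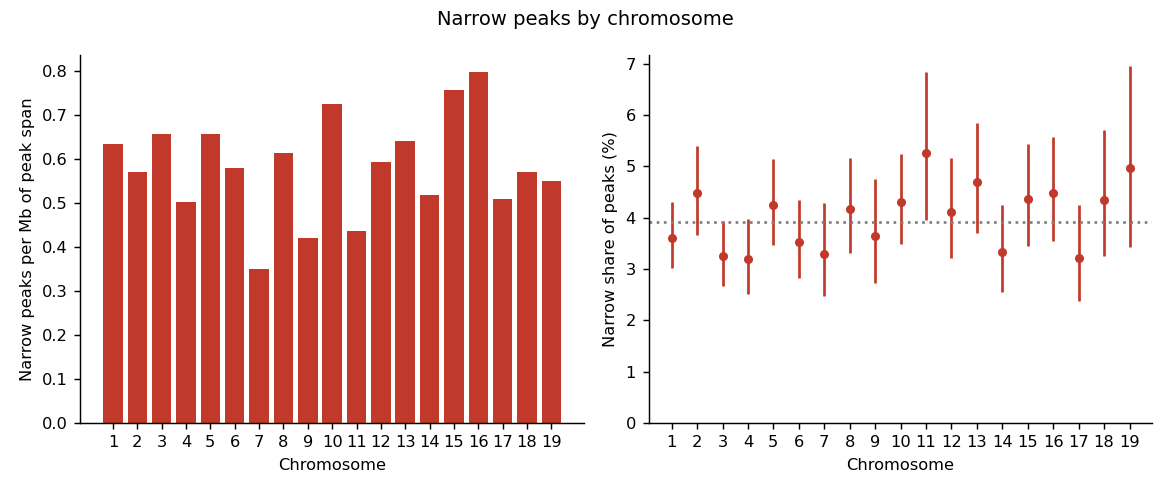
Narrow peaks by chromosome: left, number per Mb of the span from the first to the last peak; right, percentage of the peaks with 3 to under 20 input reads per bin that are narrow, with exact Clopper-Pearson 95% intervals as bars and the share over all autosomes, 3.91%, as a dotted line. Density is highest on chromosome 16 (0.799) and lowest on chromosome 7 (0.350), and the bar of chromosome 11 lies above the line.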

How the data were processed

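Reads, single and 100 bp long from libraries of 350 bp on average per the labels' protocols, were placed on mm9, and Bowtie 0.12.7 is the aligner named, both per the submitters' processing notes. No header or label used here names the peak caller or the handling of repeated and duplicate reads. The name of the list states a false discovery rate of 0.20. Per the file headers, mean ChIP, mean input and scaled input are signal in reads per bin, the highest bin is a count, the ratio is the authors' mean log2 over bins, and the deposited −log10 p values are of the mean and of the smallest p of the bins, with no test named; per-peak values are taken from the authors' deposited table. The authors' scaled input was 2.42 times the input.

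The members, limits and classes were chosen with earlier results of these data known. Peaks were named by rule: the 8 with the highest mean ChIP, the 5 with the largest log2 ratio, the 3 narrowest and the 5 farthest from another peak. Wide peaks were weighted in strata of 1 input read per bin. Folds are ratios of summed reads with exact binomial 95% intervals. Exact intervals of shares treat peaks as independent. Distances were taken to any peak of the list. Calculations were tested on simulated data. Alternatives changed the width border, input limits, strata, wide class and peak set. An edgeR test per library, foreseen for counts, was not applicable. Sequence and base composition were not analysed here. Tools were scipy 1.17.1, numpy 2.4.6, pandas 2.3.3 and matplotlib 3.10.9 under Python 3.11.15.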

Additional observations from a re-analysis of the deposited data

How the results depend on the processing

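Of 43 alternative values, 24 stayed within the interval or range of the value they replace, 19 moved and 0 changed direction. Only the ratios and differences to wide peaks could change direction. The number of peaks, the share of central summits and the distance have none to change. A width border of 800 bp left 493 peaks, with a ChIP ratio to wide peaks of 1.24, a summit ratio of 1.21, a log2 difference of 0.45, 88.2% central summits and a nearest distance of 29382 bp. The quality flag left 538 peaks, with 1.38, 1.34, 0.46 and 33270 bp. Input from 6 to under 15 left 810 peaks. These limits reduce the number of peaks by their construction. Against wide peaks of 1000 to under 2000 bp the ChIP ratio was 1.13 and the log2 difference 0.20, so the size of both depends on the class compared. The log2 difference was 0.30 from mean counts. Chosen after seeing the data were equal input and distance, with a log2 difference of 0.30, and means without the highest bin, with a ChIP ratio of 1.14. The median distance was 48441 bp to the next peak downstream and 489668 bp to another narrow peak. For a given peak neither can be shorter than the distance to the nearest peak, by construction. For the remaining shifts the cause was not tested. No paired analysis was possible because values of single libraries are not in the list, which also prevented leaving out a replicate. Few input reads per peak, a median of 50, limit the precision of single folds.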

Other observations

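Narrow peaks had narrower neighbours. The nearest peak of a narrow peak was 2252 bp wide at the median (interquartile range 1376 to 3842), against 3142 bp beside wide peaks at equal input, and it was itself under 1000 bp wide for 162 of 1400 (11.6%, exact 95% interval 9.94 to 13.4%) against 4.20%. In 104 pairs of successive peaks on a chromosome both were narrow, so 7.43% of narrow peaks directly followed another one, where narrow peaks are 3.72% of autosomal peaks. These pairs were rarely close: the median gap was 97043 bp, 6 gaps were under 10 kb and 1 was under 1 kb.

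Peak edges also differed in how they met the counting grid. A start or an end on a border of the 200 bp grid was found in 28.2% of narrow and 44.3% of wide peaks, and both edges on it in 1.07% and 6.67%. The other edges lay inside a bin, so the deposited widths are finer than the bins in which reads were counted, and the counts of a peak include the parts of its outer bins that lie beyond its edges.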
